A study of Canis lupus familiaris with 10 samples.

Results

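HMGCS1, IDI1, FDFT1, SQLE, CYP51A1, NSDHL and INSIG1, genes of cholesterol synthesis and its control, were followed in cultured canine hemangiosarcoma cells. Hemangiosarcoma is a malignant tumor of dogs that forms blood-filled vascular spaces, often in the spleen. The members were all probe sets that the array annotation names for these genes alone. That gave 15 of the 42924 probe sets besides the controls, 3 each for HMGCS1, SQLE and CYP51A1 and 2 each for FDFT1, NSDHL and INSIG1. IDI1 had no probe set under this name and is not analysed here, so 6 of the 7 genes were measured. All 15 probe sets were among the 26787 tested, which on 3 or more of the 9 arrays of purebred dogs exceeded the signal that marks the dimmest 40% of that array. The probe sets of a gene are given in the order of their mean signal, the first being the brightest.

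RNA came from cryopreserved cells of the earliest passages kept from hemangiosarcomas of 10 pet dogs, with 1 culture and 1 array per dog. The Golden Retriever group held 6 dogs aged 6 to 12 years, the males CHAD-G4, CHAD-G8 and Tucker and the females CHAD-G6, Frog and Journey. The non-Golden Retriever group held 3 males aged 7 to 9 years, CHAD-P9 (Portuguese Water Dog), Dal-4 (Dalmatian) and Joey (Rottweiler). The remaining dog, DD-1, was a 9-year-old male Golden Retriever and Great Pyrenees F1. The study asked whether gene expression in this tumor differs by breed. The comparison involved no treatment, and whether the 10 dogs had therapy before their tumors were sampled is not given in the sources used here. Each group is a set of cultures from unrelated dogs except that Frog and Journey were distant relatives. Values are log2 signals, so a difference of 1 is a doubling, and SD is the spread between dogs.

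Cells make cholesterol from acetyl-CoA through the mevalonate pathway. HMGCS1 makes HMG-CoA near the start, and IDI1 isomerizes the isoprenoid unit from which longer chains are built. FDFT1 joins farnesyl units to squalene, the first committed step toward sterols, and SQLE oxidizes squalene. CYP51A1 and NSDHL then take part in removing methyl groups from the first sterol, lanosterol. The transcription factor SREBP2, encoded by SREBF2, switches on these genes when membrane sterol is low. INSIG1 holds the SREBP carrier protein SCAP in the endoplasmic reticulum when sterol is plentiful, and is itself a target of SREBP.

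The arrays of Dal-4 and CHAD-G4 resembled the others least, with mean correlations to the other dogs of 0.905 and 0.911, against 0.928 to 0.95 for the other 8 dogs. Dal-4 also went against its recorded sex at 1 probe set of EIF2S3, a gene with copies on both sex chromosomes. There its signal was 2.95, against 3.08 to 3.33 in the 3 females and 10.15 to 10.60 in the other 6 males. Of 14 endothelial markers, PECAM1, VWF, TEK, ENG, EMCN and ESAM did not pass the filter at any probe set. The other 8, CDH5, KDR, TIE1, FLT1, CLDN5, ERG, ROBO4 and EGFL7, had a tested probe set. All 9 fibroblast markers had one. In cultures of this kind, fewer cells of a type and less RNA per cell cannot be told apart.

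The signals of the 6 genes moved together from dog to dog, and at each probe set the breed groups overlapped. CHAD-G6, a Golden Retriever, and Dal-4, a non-Golden Retriever, stood at the top. Journey, a Golden Retriever, and Joey, a non-Golden Retriever, stood at the bottom. Joey and Journey were the 2 lowest dogs at all 15 probe sets, while this held for 433 of the 26787 tested probe sets (1.62%). CHAD-G6 and Dal-4 were both among the 3 highest dogs at 14 of the 15, while this held for 4.47% of the tested probe sets. These dogs were singled out after their values were seen, so these counts describe the arrays and test nothing.

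HMGCS1 (gene 479344) condenses acetyl units into HMG-CoA. In Golden Retrievers its log2 signal at the first of 3 probe sets was lowest at 9.48 in Journey, had a median of 10.38 and was highest at 11.64 in CHAD-G6. In non-Golden Retrievers it was 10.34 in CHAD-P9, 11.06 in Dal-4 and 9.36 in Joey. The F1 dog had 10.34, sixth from the top, so the groups overlapped across nearly the whole range. The 10 dogs spanned 2.29 log2 units, or 4.89-fold. The other probe sets spanned 6.24-fold and 6.65-fold, with CHAD-G6 highest and Journey lowest at both.

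FDFT1 (gene 477362) encodes squalene synthase. Its log2 signal at the first probe set in Golden Retrievers was lowest at 8.38 in Journey, had a median of 8.97 and was highest at 10.06 in CHAD-G6. It was 8.83 in CHAD-P9, 10.17 in Dal-4 and 8.25 in Joey, and 9.23 in the F1 dog. CHAD-G6 and Dal-4 stood alone at the top, since Frog, the next dog, had 9.29. Signals spanned 3.79-fold at this probe set and 3.92-fold at the second.

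SQLE (gene 608021), squalene epoxidase, spanned a wider range. At the first probe set its log2 signal in Golden Retrievers was lowest at 9.50 in Journey, had a median of 10.67 and was highest at 11.30 in CHAD-G6. The non-Golden Retrievers held both ends of the range, with 9.84 in CHAD-P9, 11.35 in Dal-4 and 8.10 in Joey, and the F1 dog had 10.43. From Joey to Dal-4 this was 9.50-fold. The other probe sets spanned 11.3-fold and 12.6-fold, with Joey lowest at both, at 7.56 and 7.49. Their SDs over the 10 dogs, 1.06 and 1.11, lay at percentiles 95.7 and 96.1 of those of all tested probe sets, whose median SD was 0.328.

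CYP51A1 (gene 475225), lanosterol demethylase, varied less at its first probe set. Its log2 signal in Golden Retrievers was lowest at 10.75 in Journey, had a median of 11.20 and was highest at 11.52 in CHAD-G6. Dal-4 had 12.16, above every other dog, CHAD-P9 had 11.42 and Joey 10.76, and the F1 dog had 11.15. The range was 2.66-fold here, 3.53-fold at the second and 8.21-fold at the last. The last of these had 4.62 in Journey, 7.66 in CHAD-G4 and 7.62 in Dal-4, and it is the only one of the 15 at which CHAD-G4 was highest. It correlated with the other CYP51A1 probe sets at r = 0.83 and r = 0.84 over the 10 dogs, while the pairs of probe sets within each of the other genes correlated at 0.93 to 0.99.

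NSDHL (gene 481079) is a sterol dehydrogenase that acts in the same demethylation. Its log2 signal at the first probe set in Golden Retrievers was lowest at 6.68 in Journey, had a median of 7.47 and was highest at 8.27 in CHAD-G6. It was 7.15 in CHAD-P9, 8.38 in Dal-4 and 7.10 in Joey, and 7.56 in the F1 dog. The range was 3.24-fold, and it was 3.15-fold at the second. Both probe sets put Dal-4 first and CHAD-G6 next.

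INSIG1 (gene 475554), the sterol-dependent brake on SREBP, had the widest range of the 6 genes and another dog at its top. At the first probe set its log2 signal in Golden Retrievers was lowest at 8.02 in Journey, had a median of 9.52 and was highest at 10.89 in Frog. It was 8.49 in CHAD-P9, 9.89 in Dal-4 and 6.90 in Joey, and 8.68 in the F1 dog, seventh from the top. From Joey to Frog this was 3.99 log2 units, or 15.9-fold, and 14.5-fold at the second. At the first probe sets, INSIG1 in Frog was higher than its mean over the 10 dogs by 1.76. HMGCS1, FDFT1, SQLE, CYP51A1 and NSDHL in Frog lay between -0.06 and 0.20 there. Tucker also had more INSIG1 than the mean of the dogs, by 0.82, with the other 5 genes between -0.22 and 0.12 at their first probe sets. The other HMGCS1 probe sets lay farther out, at 9.34 and 8.88 in Frog and 8.33 and 7.59 in Tucker. Their medians over the dogs were 9.08 and 8.39. Over all 15 probe sets, Frog was above the mean at 14 and Tucker at 4.

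**Figure D1:**
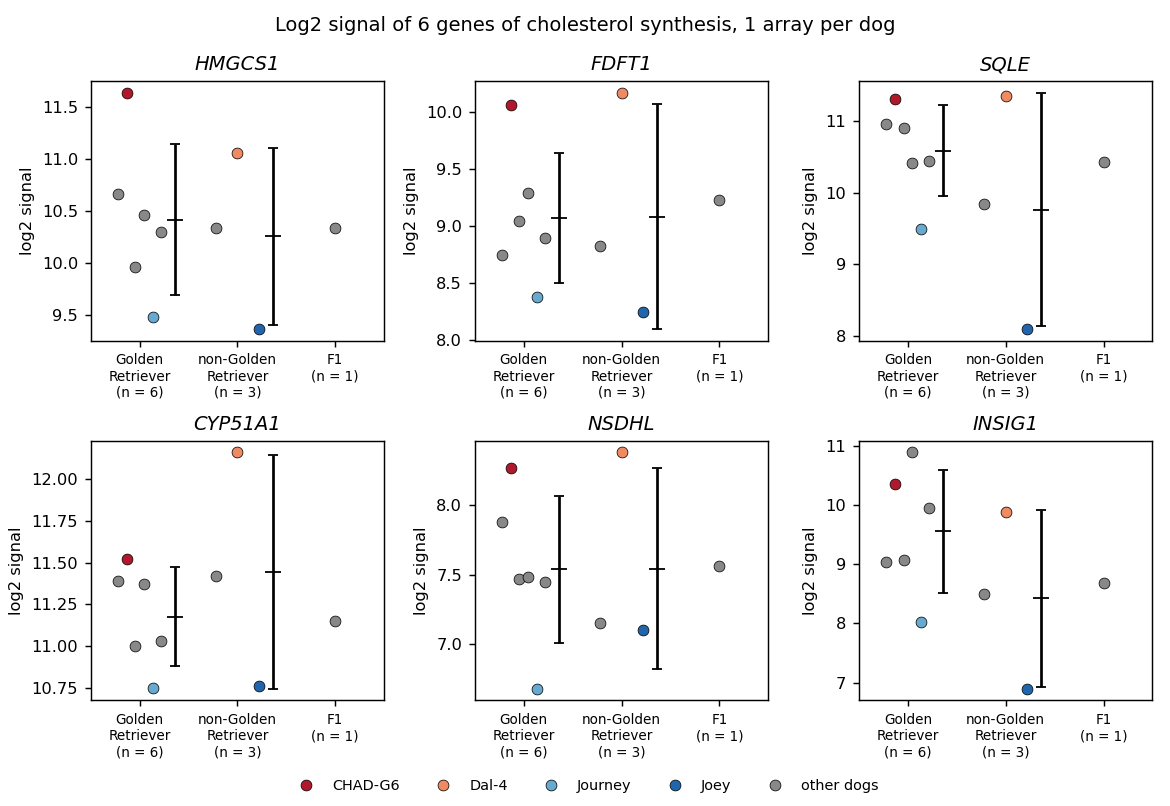
Log2 signal (vertical axis) of the first, brightest probe set of each gene in every dog, by group, with points for dogs, and mean and SD beside the Golden Retriever (n = 6) and non-Golden Retriever (n = 3) groups. CHAD-G6 and Dal-4 lie high and Journey and Joey low in each panel, so that each group spans most of the range.

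When the first probe set of each gene was set to its mean over the dogs and the 6 genes were averaged, CHAD-G6 stood at 0.91, Frog at 0.37, CHAD-G4 at 0.16, Tucker at 0.06, CHAD-G8 at -0.04 and Journey at -0.82 log2 units among the Golden Retrievers. Among the non-Golden Retrievers, Dal-4 stood at 0.88, CHAD-P9 at -0.27 and Joey at -1.21. The F1 dog stood at -0.05, near the middle. CHAD-G6 and Dal-4 were above the mean of the dogs at 15 of 15 probe sets, and Joey and Journey at 0 of 15. In the other dogs the genes were mixed, with CHAD-G4 above the mean for 4 genes and below it for FDFT1 and INSIG1. CHAD-G8 was above the mean for SQLE alone, by 0.58.

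No difference between the breed groups passed the test at any of the 15 probe sets. At an adjusted p under 0.05 (limma, 6 dogs against 3, Benjamini-Hochberg adjustment over all tested probe sets) 0 of the 15 passed, beside 1 of 26787 (0.00373%). At an unadjusted p under 0.05 also 0 of the 15 passed, beside 6.33% of all tested probe sets, of which 1.81% were higher and 4.52% lower in Golden Retrievers. The groups overlapped at all 15, while 2.46% of the tested probe sets had no overlap, 0.795% with Golden Retrievers higher and 1.66% with Golden Retrievers lower. The differences, Golden Retriever minus non-Golden Retriever, were above 0 at 7 probe sets and below 0 at 8, with a median that rounds to 0.00 beside -0.02 over all tested probe sets.

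INSIG1 had the largest difference in size. Its log2 signal averaged 9.56 ± 1.04 in Golden Retrievers and 8.43 ± 1.50 in non-Golden Retrievers (SD, n = 6 and 3), a difference of 1.13 (SE 0.733, adjusted p = 0.802 by limma; exact permutation test, p = 0.226). SQLE averaged 10.58 ± 0.629 in Golden Retrievers and 9.76 ± 1.63 in non-Golden Retrievers at its first probe set. Its differences at the 3 probe sets were 0.82, 0.92 and 0.79 (SE 0.63, 0.672 and 0.728). CYP51A1 ran the other way, with differences of -0.27, -0.42 and -0.33 (SE 0.294, 0.374 and 0.655). For HMGCS1, FDFT1 and NSDHL the differences lay between -0.11 and 0.16, with SEs of 0.375 to 0.602. NSDHL averaged 7.54 in both groups at its first probe set (SE of the difference 0.375, adjusted p = 0.999). Its difference at the second was 0.03. The study reports a gene titled much like the full name of NSDHL as lower in Golden Retrievers. It places that gene on an autosome, while the NSDHL measured here is annotated to the X chromosome. The study does not name its probe set for that gene. Neither NSDHL probe set measured here gave the reported lower signal in the same 9 dogs. Their differences were -0.00 and 0.03 (SE 0.375 and 0.42), so the study's result is not reproduced at either of them. Each difference given for the 6 genes is smaller than the spread between dogs of the non-Golden Retriever group. The SDs of that group were 0.704 to 1.83. With SEs of this size, a breed difference of the size seen for SQLE or INSIG1 was not detectable with 9 dogs, and the results do not show it to be absent.

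The differences turned on the 2 non-Golden Retrievers at the ends of the range. Dal-4 was the highest and Joey the lowest of that group at each of the 15 probe sets. Leaving either out therefore had to move every difference in the direction seen, and these shifts and counts test nothing. Without Dal-4, 14 of the 15 probe sets were higher in Golden Retrievers, the exception being the second of CYP51A1 at -0.02. SQLE was then higher by 1.61, 1.76 and 1.68 and INSIG1 by 1.86 and 1.63. These 5 probe sets reached an unadjusted p under 0.05, beside 1.28% of tested probe sets that were higher, and the smallest p among them was 0.0146. The smallest adjusted p of the 15 was 0.999. Without Joey, 12 of the 15 were lower in Golden Retrievers. SQLE then lay at -0.01, 0.04 and -0.14 and INSIG1 at 0.37 and 0.14, and 1 of the 15, the second probe set of CYP51A1, reached an unadjusted p under 0.05, beside 3.49% of tested probe sets that were lower. Its difference was -0.83 (smallest p 0.0443, smallest adjusted p 0.841). The first probe set of CYP51A1 had -0.61 (unadjusted p = 0.0504). Without CHAD-P9, 6 were higher and 9 lower. Without Journey, the Golden Retriever at the low end, 13 were higher and 2 lower, with 0 at an unadjusted p under 0.05.

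**Figure D2:**
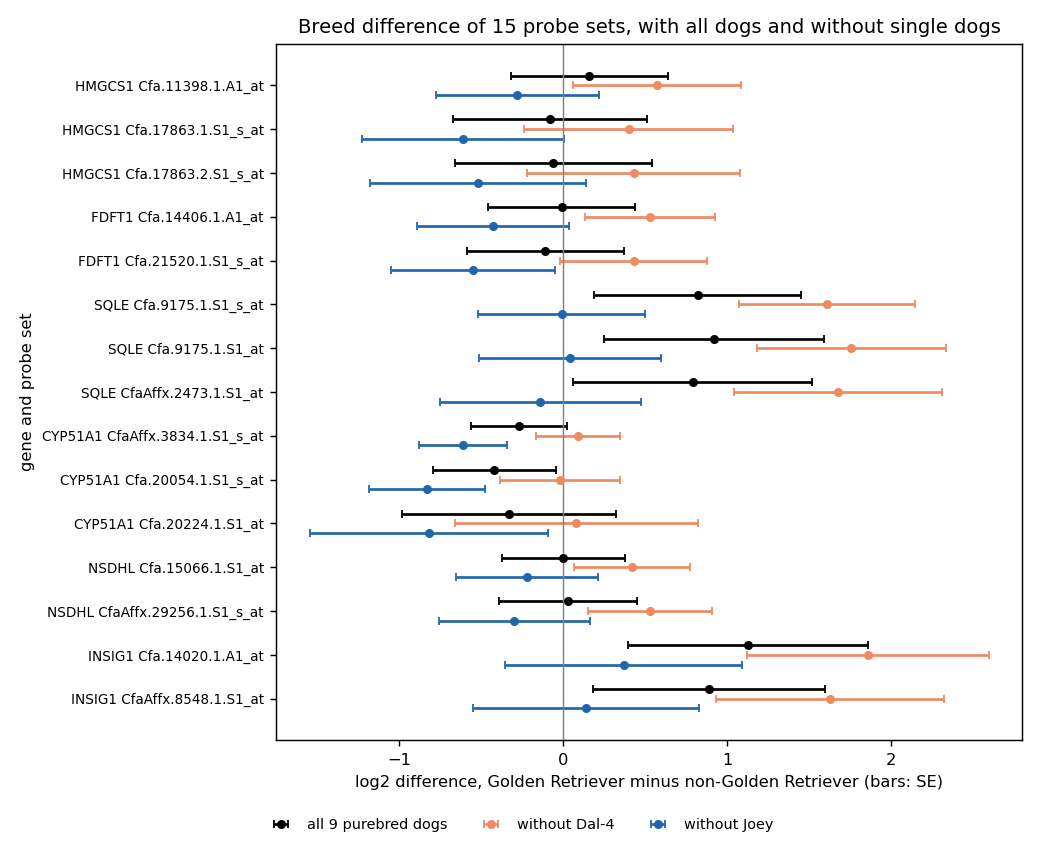
Difference between the breed groups in log2 signal (horizontal axis, above 0 where Golden Retrievers were higher) for the 15 probe sets (rows, brightest first within a gene) in the limma fit, with bars for the SE, for all 9 purebred dogs and without Dal-4 or Joey. Differences lie to the right of the full fit without Dal-4, up to 1.86, and to the left of it without Joey, down to -0.83. These directions follow from Dal-4 being the highest and Joey the lowest of their group.

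The joint movement was measured as the correlation of each probe set with the first probe set of HMGCS1 over the 10 dogs. The 12 probe sets of the other 5 genes had Pearson r of 0.73 to 0.89 with a median of 0.84, beside a median of -0.03 over the 26786 other tested probe sets. All 12 reached an unadjusted p under 0.05 in a positive direction (exact permutation test over all orders of the dogs), beside 1.83% of the tested probe sets. None passed after Benjamini-Hochberg adjustment over all tested probe sets (smallest adjusted p among all probe sets 0.369), and 0 of all 26786 did. The members had been chosen as genes of 1 pathway with earlier results of these arrays known.

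NSDHL followed HMGCS1 closely, with r = 0.89 at both probe sets (ranks 21 and 22 of 26786, adjusted p = 0.651 and 0.37, exact permutation test; Spearman's rho 0.87 and 0.93, exact permutation p = 0.00217 and 0.000335). FDFT1 had r = 0.88 and 0.85, ranks 25 and 37. SQLE had 0.82, 0.83 and 0.85, ranks 59, 50 and 40, and CYP51A1 had 0.81, 0.78 and 0.85, ranks 62, 103 and 38. INSIG1 was the least alike of them, with 0.75 and 0.73, ranks 146 and 182. The other probe sets of HMGCS1 itself had 0.96 and 0.93, ranks 2 and 6.

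These correlations did not rest on the extreme dogs for every gene. Without CHAD-G6 and Joey, the dogs farthest from the median of HMGCS1, r was 0.55 to 0.93 over 8 dogs, and 9 of the 12 probe sets reached an unadjusted p under 0.05, beside 6.43% of all. INSIG1 then had 0.55 at both probe sets (exact permutation p = 0.153 and 0.165), and FDFT1 had 0.77 and 0.71 (exact permutation p = 0.0357 and 0.0587). CYP51A1 had 0.91 at its first probe set and NSDHL 0.91 and 0.86. Within the 6 Golden Retrievers alone, r was 0.59 to 0.94 and 7 of the 12 passed the unadjusted threshold, beside 1.26% of all tested probe sets. With the breed group means taken out of the 9 purebred dogs, r was 0.75 to 0.90 and all 12 passed it, beside 1.73% of all. With SQLE in place of HMGCS1, the 12 probe sets of the other genes had r of 0.61 to 0.82, and 11 passed it, beside 2.44% of all tested probe sets. After adjustment 0 of the 12 passed with SQLE, beside 0.00747% of all, which were 2 probe sets of SQLE itself.

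Other enzymes of the same pathway, each taken at its brightest probe set, split between those whose signal moved with these genes and those whose signal did not. Of 6 further enzymes of the mevalonate and isoprenoid steps with a tested probe set, ACAT2, which makes acetoacetyl-CoA, MVD, which makes isopentenyl diphosphate, and FDPS, which makes farnesyl diphosphate, had r of 0.83, 0.93 and 0.92 with HMGCS1. The mevalonate kinases MVK and PMVK and GGPS1, which makes geranylgeranyl diphosphate outside the sterol branch, had -0.21, -0.10 and -0.13. The 3 positive ones reached an unadjusted p under 0.05, beside 1.83% of all tested probe sets in this direction. The median of the 6 was 0.36. MVK and PMVK varied little over the 10 dogs, with SDs of 0.15 and 0.184, at percentiles 9.1 and 17.7 of all tested probe sets. A low r at such probe sets says little about their control. GGPS1 had an SD of 0.333, at percentile 50.9. Joey and Journey were the 2 lowest dogs for 3 of the 6, beside 1.62% of all tested probe sets.

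All 8 other enzymes after squalene had a positive r, beside 12501 of all 26786 probe sets, with a median of 0.74. An unadjusted p under 0.05 was reached by 5 of them, beside 1.83% of all tested probe sets in this direction. MSMO1, the sterol methyl oxidase, had 0.92, SC5D, a sterol desaturase, 0.91, LSS, which closes the ring of lanosterol, 0.86, HSD17B7, a ketoreductase, 0.77, and DHCR7, which makes cholesterol from its last precursor, 0.70. LSS had a log2 signal of 5.72 to 7.60 in Golden Retrievers with Journey lowest, and 6.88 in CHAD-P9, 7.68 in Dal-4 and 5.52 in Joey. LBR, which shares the sterol reductase step with TM7SF2 and also anchors chromatin to the nuclear envelope, was the least alike, at 0.15.

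**Figure D3:**
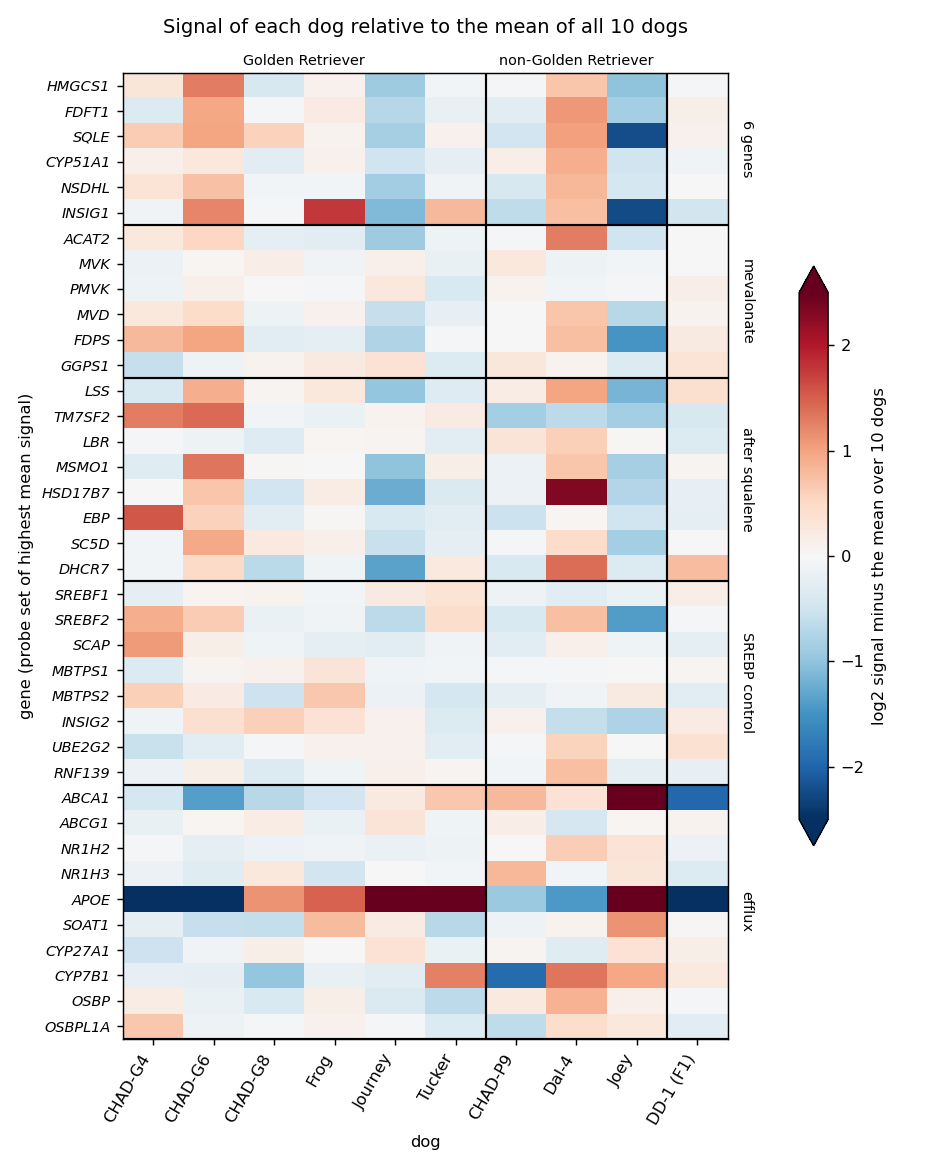
Log2 signal of each dog (columns, Golden Retrievers left, then non-Golden Retrievers and the F1 dog) minus the mean over the 10 dogs, for the 6 genes and for tested genes of 4 further lists (rows), with red above and blue below the mean and values beyond 2.5 in either direction at the end of the scale. The 6 genes are red in CHAD-G6 and Dal-4 and blue in Journey and Joey, as are ACAT2, MVD, FDPS, LSS, MSMO1, HSD17B7 and SC5D, while MVK, PMVK and most control genes are pale.

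Among the 8 tested genes that control the pathway, SREBF2 alone had an unadjusted p under 0.05 (r = 0.83). Over all tested probe sets 1.83% had one in this direction. The first probe set of SREBF2 had a log2 signal of 6.94 in Journey, 8.04 in Tucker, 8.23 in CHAD-G6 and 8.50 in CHAD-G4 among Golden Retrievers. It had 7.21 in CHAD-P9, 8.35 in Dal-4 and 6.21 in Joey. SREBF1, which encodes the SREBP that acts mostly on fatty acid genes, had r = -0.22. SCAP, the carrier, had 0.40, INSIG2, a relative of INSIG1, 0.20, and the site proteases MBTPS1 and MBTPS2, which release SREBP, 0.04 and 0.24.

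Of 9 tested genes of lipoprotein uptake and lysosomal release, 1 reached an unadjusted p under 0.05 with HMGCS1. This was SCARB1, a receptor for high-density lipoprotein, with r = 0.72, beside 1.83% of all tested probe sets in this direction. The others lay between -0.32 and 0.46, among them NPC1 at 0.25 and NPC2 at 0.41, which move cholesterol out of lysosomes, and LRP1 and VLDLR, which are lipoprotein receptors, at -0.29 and -0.17.

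Of 10 tested genes of efflux, esterification and oxysterols, which remove or store cholesterol, 7 had a negative r with HMGCS1, beside 14285 of all 26786 probe sets. The median of the 10 was -0.43, beside -0.03 over all. APOE, the apolipoprotein, and CYP27A1, which makes an oxysterol, had -0.72 each (unadjusted exact permutation p = 0.0178 and 0.0195), and 2 of 10 passed beside 2.77% of all tested probe sets in this direction. APOE had log2 signals of 10.61 in Journey and 10.26 in Joey, and of 4.57 in CHAD-G6 and 6.03 in Dal-4, but also 3.59 in CHAD-G4 and 10.79 in Tucker, which stood near the middle for the synthesis genes. ABCA1, the pump that exports cholesterol, had r = -0.55, and 0.02 without CHAD-G6 and Joey.

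Fatty acid synthesis genes, many of them also SREBP targets, had a median r of 0.59 over 12 genes. A positive r at an unadjusted p under 0.05 was reached by 5, beside 1.83% of all tested probe sets. SCD, which desaturates stearate, had 0.82, FADS2, another desaturase, 0.79, FASN, fatty acid synthase, 0.76, and ACLY, which makes cytosolic acetyl-CoA, 0.76. ELOVL5, a chain elongase, had -0.22.

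**Figure D4:**
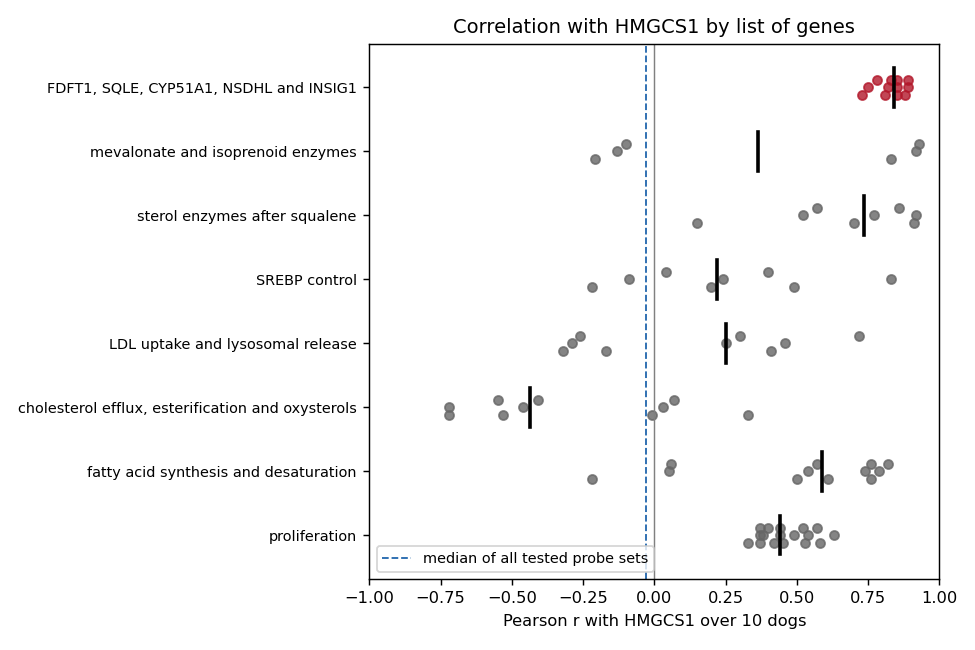
Pearson r with HMGCS1 over 10 dogs (horizontal axis) for the 12 probe sets of the other 5 genes and for the tested genes of 7 lists (rows), with 1 point per probe set or gene, a bar at each median and a dashed line at -0.03, the median of all tested probe sets. The 12 probe sets lie at 0.73 to 0.89, and the median falls to -0.43 for efflux, esterification and oxysterol genes.

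Among probe sets with 1 gene name outside the members, the 10 whose pattern over the dogs was most like the mean of the 6 genes were, by Pearson r over 10 dogs, SREBF2 (0.94 and 0.93 at separate probe sets), MVD (0.94), ERAP2 (0.93), SC5D (0.92), RDH11 (0.91), MSMO1 (0.90), ACLY (0.90), LSS (0.90) and FDPS (0.89). A further 4 probe sets without a single gene name ranked among them and are not named here. Of these 9 genes, 7 stand in the lists of sterol and fatty acid genes. ERAP2, an aminopeptidase that trims antigenic peptides, and RDH11, a retinol dehydrogenase, do not. ERAP2 had a log2 signal of 5.76 in Journey and 7.73 in CHAD-G6 among Golden Retrievers, and 6.59 in CHAD-P9, 7.26 in Dal-4 and 5.58 in Joey. The closer SREBF2 probe set ranked first of all tested probe sets, ahead of any of the members.

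By breed, none of these related genes passed after adjustment. Among the 53 tested genes of the lists of mevalonate enzymes, enzymes after squalene, SREBP control, uptake, efflux and fatty acids, 0 passed the adjusted threshold, while 8 reached an unadjusted p under 0.05, beside 6.33% of all tested probe sets. TM7SF2, a sterol reductase, was the only enzyme of the pathway with no overlap in the higher direction, beside 0.795% of all tested probe sets. It had log2 signals of 7.19 to 8.76 in Golden Retrievers (median 7.49), and 6.51 in CHAD-P9, 6.69 in Dal-4 and 6.51 in Joey. Its difference was 1.23 (SE 0.376, unadjusted p = 0.00907 and adjusted p = 0.772 by limma), and the F1 dog had 6.96. Over every alternative the difference stayed between 1.04 and 1.42.

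VLDLR had a difference of 1.92 (SE 0.743, adjusted p = 0.772 by limma), with Dal-4 far below the other dogs. Its log2 signal was 8.98 to 10.13 in Golden Retrievers, and 9.0 in CHAD-P9, 5.13 in Dal-4 and 8.74 in Joey. Without Dal-4 the difference was 0.67. NPC1 had 8.89 to 10.06 in Golden Retrievers, and 8.67, 8.51 and 8.88 in CHAD-P9, Dal-4 and Joey. Its groups thus barely missed overlap, beside 0.795% of all tested probe sets with no overlap and Golden Retrievers higher. The NPC1 difference was 0.64 (SE 0.253, adjusted p = 0.772 by limma). INSIG2 had a difference of 0.58 (SE 0.256).

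ABCA1 had log2 signals of 5.90 to 7.96 in Golden Retrievers, against 8.09 in CHAD-P9, 7.65 in Dal-4 and 10.20 in Joey. Its difference was -1.71 (SE 0.589, adjusted p = 0.772 by limma) and -0.93 without Joey. NR1H2, an LXR nuclear receptor that senses oxysterols, had 9.05 to 9.22 in Golden Retrievers and 9.29 to 9.88 in non-Golden Retrievers. Its difference was -0.46 (SE 0.143), with no overlap, beside 1.66% of all tested probe sets with Golden Retrievers lower and no overlap. OSBP, an oxysterol-binding protein, and LBR had -0.62 and -0.42 (SE 0.238 and 0.162), and without Dal-4 -0.39 and -0.29. LBR, NPC1 and NR1H2 are named because they are among the 8. SREBF2, LSS and DHCR7 had differences of 0.52, -0.07 and -0.46 (SE 0.472, 0.497 and 0.486), none at an unadjusted p under 0.05.

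No sex difference passed the test at any of the 15 probe sets. Comparing 3 females with 7 males, 0 of the 15 probe sets passed at an adjusted p under 0.05 (limma), as did 0 of all 26787 (0%), and 0 of the 15 passed at an unadjusted p under 0.05, beside 1.21% of all. NSDHL lies on the X chromosome in the dog assembly UU_Cfam_GSD_1.0. It averaged 7.48 in females and 7.57 in males at its first probe set, a difference of -0.09 (SE 0.347), and 6.35 in females and 6.18 in males at the second, a difference of 0.16 (SE 0.387). Without Dal-4 these were 0.04 and 0.34. INSIG1 had female minus male differences of 0.90 and 0.96 (SE 0.716 and 0.651, smallest unadjusted p = 0.171), and all 3 females were Golden Retrievers, so breed and sex are partly confounded here. Each end of the order of dogs held both sexes, with the female CHAD-G6 and the male Dal-4 high and the female Journey and the male Joey low.

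Several other measures were set beside HMGCS1 over the 10 dogs, 7 in all. The mean of 17 proliferation genes had r = 0.48 and rho = 0.67 (exact permutation test, p = 0.16 and 0.039, adjusted over the 7 measures 0.539 and 0.137), and r = 0.47 without Tucker and Dal-4. Dal-4 had the highest proliferation mean, 10.26, and Tucker the lowest, 6.60, while the members in Tucker were near the mean. All 17 proliferation genes had a positive r with HMGCS1, 0.33 to 0.63, beside 12501 of all 26786 probe sets. An unadjusted p under 0.05 was reached by 0 of them, beside 1.83% of all in this direction. The mean of the 6 tested hematopoietic markers had r = -0.66 and rho = -0.71 (exact permutation test, p = 0.0407 and 0.0268, adjusted 0.285 and 0.137), and -0.52 without Dal-4 and Journey. It ranged from 6.38 to 6.92 in Golden Retrievers and from 6.02 to 6.88 in non-Golden Retrievers. Of the 11 hematopoietic markers, PTPRC, SPI1, CD163, TYROBP and CD79A did not pass the filter at any probe set. The 6 tested were CD14, CD68, CSF1R, AIF1, LCP1 and CD3E. CD14 had r = -0.87 with HMGCS1 (exact permutation test, unadjusted p = 0.00128, adjusted over all tested probe sets 0.707). It alone of the 6 reached an unadjusted p under 0.05, beside 2.77% of all tested probe sets in this direction. The others had r of -0.58 to 0.15. Endothelial, fibroblast and smooth muscle marker means had r of 0.14, -0.36 and -0.30, and the excess of 3′ over 5′ signal of the actin and GAPDH control probe sets, a sign of RNA quality, had -0.26 for both (adjusted p = 0.539 to 0.697 by the exact permutation test). The part of proliferation, of other cell types and of RNA quality in the joint movement was not tested.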

How the data were processed

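RNA of 10 cultures was hybridized to Affymetrix Canine_2 arrays. The authors deposited RMA values (affy package) on the log2 scale, normalized over all arrays together, with 1 value per probe set and array. Versions are not given in the sources used here. Of 43035 probe sets, 111 controls were left out. Gene names came from GEO's platform annotation, with 29264 probe sets of 1 gene, 439 of several and 13332 not listed. Breed groups were compared with limma (version 3.58.1, R 4.3.3) over the 9 purebred dogs, and sexes over all 10. Correlations with HMGCS1 were tested over all orders of the dogs. The members and lists were chosen with earlier results of these data known. All probe sets of the members are named. Lists used the probe set of highest mean signal per gene. Up to 4 genes per list were to be named (the highest and lowest by breed difference or likeness to the members), besides SREBF2, LSS and DHCR7, and the 10 probe sets of like pattern. The fit was tested on simulated data. Alternatives were other tests, filters, scalings and sets of dogs. The number of arrays limits precision, and no culture was arrayed again. The tests rest on the variation between dogs, from which that between cultures and arrays cannot be told apart.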

Additional observations from a re-analysis of the deposited data

How the results depend on the processing

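No paired analysis was possible because the replicate numbers only name dogs and pair none across the groups. Adjusted calls were 0 among the 15 probe sets under every alternative run for breed and sex, and 0 among the 12 probe sets of the other genes under every alternative run for correlation. Over all probe sets, adjusted correlations numbered 2 with SQLE as anchor, both of SQLE itself, and 1 with the second HMGCS1 probe set. Those that reached an unadjusted p under 0.05 by breed were 5 without Dal-4 and CHAD-G4 (all higher, beside 1.53% of all), and 0 to 5 without single dogs, with 5 without Dal-4 (all higher, beside 1.28%) and 1 without Joey (lower, beside 3.49%). Within Golden Retrievers 7 of 12 probe sets correlated with HMGCS1 at this threshold, and 10 to 12 did without single dogs. Over all probe sets the adjusted breed count, 1, was 2 with the methods' t-test, without Dal-4 and CHAD-G4 and without Joey and Journey, 0 with the F1 dog as a non-Golden Retriever, and 1 to 2 without single dogs (2 without Joey). The 1695 at an unadjusted p under 0.05 became 711 among the more variable probe sets, 918 with the F1 dog as a non-Golden Retriever, 1076 without Dal-4 and CHAD-G4, and 966 to 3141 without single dogs (966 without Dal-4, 3141 without CHAD-P9). The higher share was 28.6%, and 45.9% after centring each array on its median, which moved the median difference of all tested probe sets from -0.02 to 0.05. The alternatives without Joey and Journey, without reporter probe sets, with another HMGCS1 probe set as anchor and without single dogs for the correlation were chosen after seeing the data.

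Breed differences of 11 of the 15 probe sets changed sign in some alternative, with the dogs or the scaling used. Both probe sets of INSIG1, the second of SQLE and the second of CYP51A1 kept their sign in every alternative. The differences of SQLE (0.82 and 0.79), SREBF2 (0.52) and DHCR7 (-0.46) changed sign with the dogs alone, and the cause was not tested. Without single dogs the lowest and highest values were -0.28 and 0.57, -0.61 and 0.40, and -0.52 and 0.43 for the 3 probe sets of HMGCS1, -0.43 and 0.53, and -0.55 and 0.43 for FDFT1, -0.01 and 1.61 (the first) and -0.14 and 1.68 (the last) for SQLE, -0.61 and 0.09 (the first) and -0.82 and 0.08 (the last) for CYP51A1, and -0.22 and 0.42, and -0.30 and 0.53 for NSDHL. They were -0.00 and 1.07 for SREBF2, -0.66 and 0.42 for LSS and -0.76 and 0.12 for DHCR7. Without Dal-4 and CHAD-G4 the values that turned positive were 0.35 and 0.40 for HMGCS1, 0.60 and 0.52 for FDFT1, 0.05 for CYP51A1, 0.35 for NSDHL, 0.48 for LSS and 0.08 for DHCR7. Without Joey and Journey, HMGCS1 had -0.10 and NSDHL -0.18. Centring gave 0.01 for HMGCS1, 0.06 for FDFT1 and 0.07 for NSDHL, and quantile normalization 0.02 for FDFT1 and 0.06 for NSDHL. With the F1 dog as a Golden Retriever, FDFT1 had 0.01 and NSDHL 0.00. Males alone gave 0.06 and -0.08 for NSDHL, and the mean of its probe sets 0.01. The sex difference of NSDHL turned to 0.04 without Dal-4.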
